A study of Homo sapiens with 22 samples.

Results

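The cell lines compared here were 10 of the 11 neuroblastoma lines of the study, each on 1 array in normoxia (20% O2). They were grouped by a rule that used their measured signal of MYCN, a transcription factor that is amplified in the most aggressive neuroblastomas. The MYCN-high lines were GI-LI-N, SK-N-BE2(C), IMR-32, LAN-1 and SK-N-SH, with a signal above 1000 at the MYCN probeset that the split used. The MYCN-low lines, all under that threshold, were ACN, SHEP-2 and GI-ME-N as well as SHEP21N in its pair of cultures, of which one was labelled without MYCN overexpression (kept in 50 ng/mL tetracycline, "SHEP21N MYCN off" here) and one with it (no tetracycline, "SHEP21N MYCN on"). SK-N-F1, with 40.0 at the MYCN probeset of the split, was also under the threshold but was left out by the rule. The MYCN-low group was therefore not set by the MYCN signal alone. SK-N-F1 serves below as a line outside both groups. In all, 10 of the 22 arrays of the series entered the comparison, and the 10 arrays of the same lines in hypoxia (1% O2) gave a second measurement that the split did not use. No further treatment was labelled. Signals are listed below in the line order of this paragraph.

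Neuroblastoma arises from precursors of the sympathetic nervous system, and its cultured lines are known to take different forms. Neuroblastic (adrenergic) cells grow neurites, store catecholamines and depend on transcription factors of sympathetic neurons. Substrate-adherent (mesenchymal) cells are flat, carry matrix and adhesion genes and resemble neural crest or Schwann cell precursors. SHEP is an adherent subclone of SK-N-SH, and SHEP21N carries a MYCN transgene that tetracycline switches off.

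MYCN was used to form the groups, so its values are given as a description. At the probeset of the split the MYCN-high lines had signals of 1419, 5547, 2078, 1789.9 and 1591, and the MYCN-low lines of 18.8, 132, 10.8, 28.7 and 13.7. The lowest signal inside the first group was thus 1419 and the highest outside it 132. At the brighter MYCN probeset the signals were 43593, 55612, 38791, 33350.0 and 33504 in the MYCN-high lines and 47.1, 55.3, 5.43, 6.0 and 19 in the MYCN-low lines. SK-N-F1 had 40.0 at the first probeset and 5788 at the second. The MYCN reading of the array labelled SHEP21N with overexpression therefore went against its label in normoxia. Its signal was 13.7 at the first probeset, below that of the array labelled without, and 19 at the second, far under every MYCN-high line. The 3'/5' ratio of the GAPDH control probesets, described below, was 67.3 on this array, and the part of RNA quality in its MYCN reading was not tested. In hypoxia the array labelled with overexpression went with its label at the first probeset, with 830.2 against 25.3 for SHEP21N MYCN off. At the second it had 6.0 against 12.7. The second probeset was thus dim on both arrays labelled with overexpression. A further MYCN probeset had 67.3 for SHEP21N MYCN on against 16.3 for SHEP21N MYCN off in hypoxia, and 890 to 2082 in the MYCN-high lines. In normoxia this further probeset had 7.3 for SHEP21N MYCN on against 16.3 for SHEP21N MYCN off. At the first probeset in hypoxia the MYCN-high lines had 1568 to 5346 and the other MYCN-low lines 20.5 to 38.9.

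The neuroblastic and adherent names were checked against their markers. Of the neuroblastic markers, STMN2, ELAVL4, DBH and HAND2 were higher in the MYCN-high lines, while GATA3 (log2 difference 4.67 ± 1.34, adjusted p = 0.0567) and TH (4.45 ± 1.57, adjusted p = 0.111) did not pass the test. TH, which makes the first step of catecholamine synthesis, had signals of 68.3, 6808, 77.1, 509.8 and 2.75 in the MYCN-high lines, so it was bright only in SK-N-BE2(C) and LAN-1, against 12.7, 6.67, 4.68, 4.0 and 15.7 in the MYCN-low lines. CAV1, YAP1, FN1, SNAI2 and PRRX1 were lower in the MYCN-high lines. COL1A1, a collagen of mesenchymal cells, had 1447, 114, 818, 1045 and 1089 in the MYCN-high lines and 52.6, 11458, 27093, 23151 and 21137 in the MYCN-low lines, where ACN lacked it, and did not pass the test (-2.87 ± 1.66, adjusted p = 0.327). VIM, the intermediate filament of mesenchymal cells, was bright in both groups, with 14847, 28855, 15871, 8624 and 23746 in the MYCN-high lines and 103801, 65584, 34805, 30019.9 and 20292 in the MYCN-low lines (-1.08 ± 0.47, adjusted p = 0.195). CD44, an adhesion receptor, had 137, 1279, 206, 128 and 505 against 19810.2, 16122, 6662, 8439.9 and 8552 and was lower in the MYCN-high lines (-4.94 ± 0.6, adjusted p = 0.000566). Because VIM did not separate the groups and ACN lacked COL1A1, the groups are called by their MYCN signal.

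Several arrays were not independent of each other. Across genes, the MYCN-high arrays of SK-N-SH, GI-LI-N and IMR-32 correlated with each other at r of 0.925 to 0.931, against 0.867 to 0.892 for the other pairs of MYCN-high lines. The 3 SHEP arrays correlated at 0.821 to 0.903, other MYCN-low pairs at 0.763 to 0.854, and MYCN-high with MYCN-low lines at 0.730 to 0.827. SK-N-SH is known as the parent of SHEP and as a line without MYCN amplification, so the high MYCN signal on the array labelled SK-N-SH goes against that label. The normoxia counts of called genes, over all genes and by list, are therefore also given with these 3 MYCN-high arrays merged to their mean and the 3 SHEP arrays to theirs, which compares 3 with 3. The 3'/5' ratio of the GAPDH control probesets, which climbs as RNA degrades, was 1.04 to 1.15 on the MYCN-high arrays. On the MYCN-low arrays it was 67.3 for SHEP21N MYCN on and at most 1.37 for the rest. The same ratio of the ACTB control probesets was 94.0 for SHEP21N MYCN on and 5.05 for SHEP21N MYCN off. On the MYCN-high arrays the ACTB ratio was 1.40 to 1.80. Counts are also given without SHEP21N MYCN on. The SHEP lines came from a laboratory and the other lines from a cell line collection, so provider and lineage cannot be told apart within the MYCN-low group. The array medians ran between 69.4 and 102 in the MYCN-high group and between 70.5 and 134 in the MYCN-low group. A bulk array does not tell more cells of a kind from more RNA per cell.

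Of 19774 genes other than MYCN, 850 were higher and 660 lower in the MYCN-high lines, 7.64% of the genes tested (4.3% higher, 3.34% lower). A gene was called when its adjusted p in limma was under 0.05 and the groups differed at least 2-fold. The p-values measure the spread between the arrays of a group, since no culture has replicate arrays. They take these arrays as independent, although some lines are related and SHEP21N gave a pair of arrays. With the values as deposited, which moved the median difference of all genes from 0.01 to -0.25 on the log2 scale, 779 were higher and 980 lower. Quantile normalization (median -0.11) gave 775 and 898. With the related lines averaged, 172 were higher and 85 lower (1.3% of genes: 0.87% and 0.43%), and all 257 were among the 1510. Without SHEP21N MYCN on, 638 were higher and 438 lower (5.44%: 3.23% and 2.22%). Leaving out GI-LI-N gave 534 and 414, leaving out IMR-32 514 and 392, and leaving out SK-N-SH 489 and 391. Leaving out GI-ME-N gave 1294 higher genes, and leaving out SHEP21N MYCN off 390 lower ones. The groups did not overlap in their normalized levels at 1795 genes (9.08%), of which 1113 (5.63%) were higher and 682 (3.45%) lower, and 1199 of the 1510 called genes were among them.

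The 12 higher genes described first had the largest positive differences once signals under 50 were set to 50. Only called genes without overlap between the groups and with 500 or more on every array of the higher group were eligible. Their lack of overlap was therefore set by the choice. Among them GAL, the neuropeptide galanin, had signals of 19245, 21565, 24795, 10546 and 14350.4 in the MYCN-high lines and 114, 68.8, 51.9, 17.3 and 90.7 in the MYCN-low lines. No MYCN-high line came near a MYCN-low one, and the difference was 8.49 ± 0.48 (SE) on the log2 scale (adjusted p = 3.51e-06), or 289-fold once signals under 50 were set to 50. PHOX2A, a transcription factor of sympathetic neurons, had 13419.9, 13416, 20229.6, 8448 and 12509 against 30.8, 15.6, 30.4, 82.3 and 16 (9.1 ± 0.55, adjusted p = 5.27e-06, 255-fold with the floor). CD24, a surface glycoprotein, had 32233, 30186, 28972, 14581 and 30156 in the MYCN-high lines and 29.3, 333, 471, 53 and 102 in the MYCN-low lines (8.03 ± 0.78, adjusted p = 0.000131). ELAVL3, a neuronal RNA-binding protein, had 7815, 12098, 12262, 6837 and 9397 against 23.2, 19.8, 7.7, 6.0 and 55.7 (9.43 ± 0.53, adjusted p = 3.51e-06), and its relative ELAVL4 had 9388, 7329.9, 7989.6, 5431 and 10435 against 12.5, 166, 36.4, 8.7 and 48.7 (8.22 ± 0.69, adjusted p = 4.89e-05). The calls of these 5 held with the related lines averaged (adjusted p between 0.00176 and 0.022).

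The other 7 of these genes follow. STMN2, a microtubule regulator of growing neurites, had 3367, 39516, 6414, 24889 and 4353 in the MYCN-high lines and 81.1, 45.6, 3.59, 37 and 85.3 in the MYCN-low lines (8.46 ± 0.89, adjusted p = 0.000225), with the brightest signals in SK-N-BE2(C) and LAN-1. NEFM, a neurofilament subunit, was likewise brightest in SK-N-BE2(C) and LAN-1 (4834, 18286, 3086, 12965 and 6166 in the MYCN-high lines; 8.07 ± 0.72, adjusted p = 7.71e-05), and in the MYCN-low lines it was between 18.4 and 30 in all but SHEP21N MYCN off, where it was brighter. CHRNA3, a nicotinic receptor subunit of sympathetic ganglia, had 17041, 3281, 16843, 17867 and 11476 against 98.9, 159, 33.9, 5.7 and 119 (8.05 ± 0.84, adjusted p = 0.000225). In SK-N-BE2(C) it was the lowest of its group. ASS1, an enzyme of arginine synthesis, was also lowest there (21640.1, 1519, 14800.4, 9993 and 14904 in the MYCN-high and 125, 183, 11.5, 143 and 208 in the MYCN-low lines; 6.88 ± 0.86, adjusted p = 0.000679). OLFM1, a secreted glycoprotein of neurons (8.55 ± 0.76, adjusted p = 6.97e-05), and IGFBPL1 (8.5 ± 0.51, adjusted p = 4.86e-06) completed the group with SOX11, a transcription factor of immature neurons. SOX11 had 21099, 14158, 19763, 5760.1 and 20608 in the MYCN-high lines, but 17.2, 10.8, 2489, 75.3 and 292 in the MYCN-low lines, where GI-ME-N stood above the others (7.46 ± 1.37, adjusted p = 0.00728), and it lost its call with the related lines averaged (adjusted p = 0.172).

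The 12 genes lower in the MYCN-high lines were chosen in the same way, so their lack of overlap was again set by the choice. Among them CAV1, which encodes the coat protein of caveolae, differed most. Its signals were 6.78, 3.95, 7.47, 4.56 and 15.9 in the MYCN-high lines, near the bottom of the scale, and 4914, 50919, 16510.1, 28372 and 17849 in the MYCN-low lines (-11.14 ± 0.66, adjusted p = 4.86e-06, 331-fold with the floor). ANXA1, a membrane-binding protein of inflammation, had 62.2, 61.5, 40.9, 185 and 17.4 against 4486, 24520.1, 17339.6, 38398 and 21421 (-8.04 ± 0.77, adjusted p = 0.000125). YBX3, a cold-shock domain protein that binds RNA, had 9.57, 5.16, 13.1, 18.3 and 25.8 against 5872, 6135, 12371, 18660.3 and 21884 (-9.56 ± 0.66, adjusted p = 1.75e-05). Both were bright in all 5 MYCN-low lines and dim in all 5 MYCN-high lines. SRGN, a proteoglycan core protein (-9.67 ± 0.87, adjusted p = 7.74e-05), TGFBI, a matrix protein (-8.89 ± 0.7, adjusted p = 3.79e-05), and MYOF, a membrane repair protein (-8.61 ± 0.47, adjusted p = 3.51e-06), showed the same split. For MYOF the signals were 14.3, 19.9, 7.37, 15.4 and 9.47 in the MYCN-high and 2856, 9796, 5321, 6916 and 6712 in the MYCN-low lines. S100A10, which forms a complex with annexin A2, did not follow as tightly. LAN-1 stood at 4382 among 27.3, 292, 12.3, 4382 and 68.6 in the MYCN-high lines, against 44389, 51116, 18260.4, 29501 and 17543 in the MYCN-low lines (-7.62 ± 1.34, adjusted p = 0.0057), and the call was lost with the related lines averaged (adjusted p = 0.162). NIBAN1, PRSS23, IFITM3, FXYD5 and DNAJC15 completed the 12 genes chosen in this way, with differences between -6.4 and -9.06, and their calls held with the related lines averaged.

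**Figure D1:**
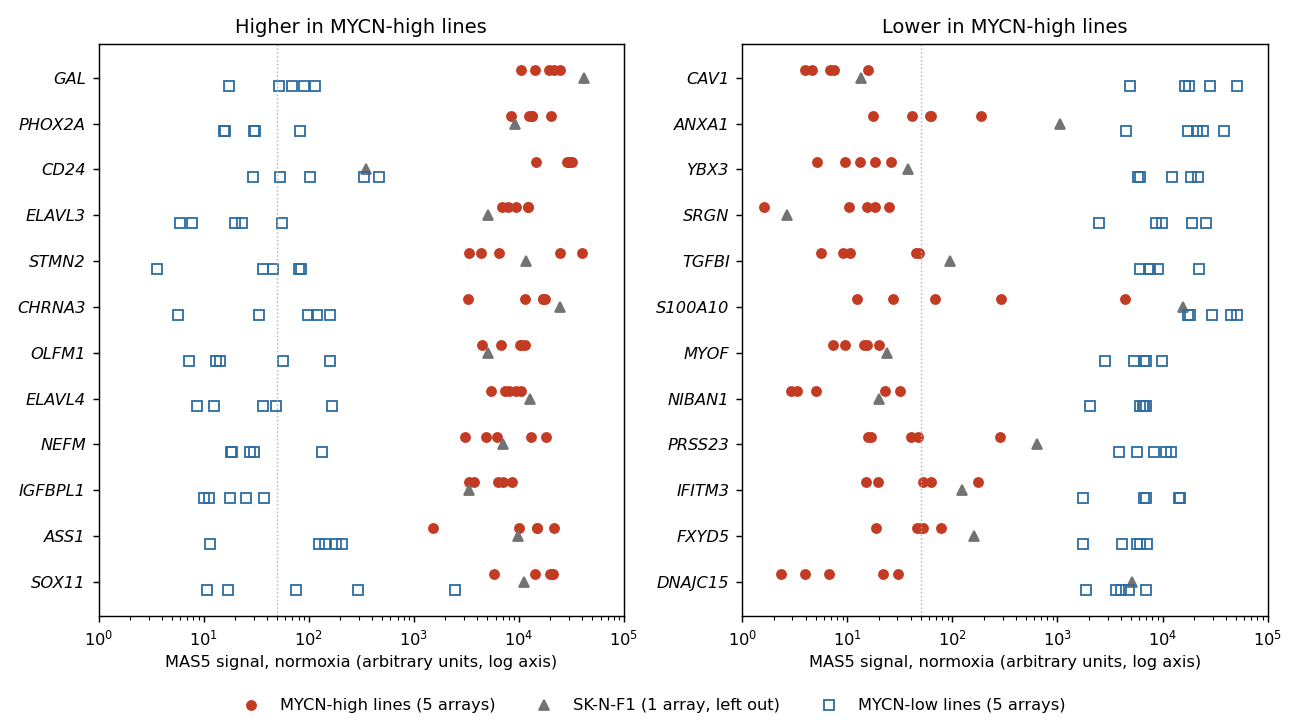
Signals of the 12 genes chosen in each direction, on a log axis in arbitrary units, 1 row per gene. These genes have the largest differences once signals under 50 are set to 50. Only called genes without overlap between the groups and with 500 or more on every array of the higher group were eligible. Filled circles are the 5 MYCN-high lines, open squares the 5 MYCN-low lines, the triangle SK-N-F1, and the dotted line a signal of 50. CAV1 lies at 15.9 or less in every MYCN-high line and at 4914 or more in every MYCN-low line, while SK-N-F1 sits with the MYCN-low lines at CD24 and DNAJC15.

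The neighbours of MYCN on chromosome 2 divided the MYCN-high lines. MYCNOS, the antisense transcript of the MYCN locus, had 1185, 1551, 969, 1414 and 668 in the MYCN-high lines and 33.8, 6.52, 20.3, 22.7 and 24.3 in the MYCN-low lines. It overlaps the gene that the split used, so this is a description as well. DDX1, an RNA helicase gene often amplified together with MYCN, had 70035, 12946, 68347, 12937 and 56864 in the MYCN-high lines, so GI-LI-N, SK-N-SH and IMR-32 were several-fold above SK-N-BE2(C) and LAN-1, against 8029.7, 5386, 7875, 6684 and 6560.2 in the MYCN-low lines (2.57 ± 0.59, adjusted p = 0.0228). Its call was lost when SK-N-SH, GI-LI-N, IMR-32, SHEP-2 or SHEP21N MYCN on was left out (adjusted p between 0.0508 and 0.0643) and with the related lines averaged (adjusted p = 0.382). NBAS, a further neighbour, showed the same division of the MYCN-high lines, with 33573, 633, 21234, 1177 and 22643, against 706, 704, 646, 596 and 949.9 in the MYCN-low lines, and did not pass the test (3.46 ± 1.05, adjusted p = 0.07).

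Counts of each list below stand against shares over all genes of 4.3% higher and 3.34% lower. With the related lines averaged these shares were 0.87% and 0.43%, and without SHEP21N MYCN on 3.23% and 2.22%. Most transcription factors of the adrenergic state were called. Of 21 measured members, 14 were higher and none was lower in the MYCN-high lines, and their median difference was 4.23 on the log2 scale, against 0.01 for all genes. With the related lines averaged 4 were called higher (PHOX2A, HAND1, ISL1 and ZNF536), and without SHEP21N MYCN on 12. ISL1, a LIM homeodomain factor of motor and sympathetic neurons, had 5504, 11195, 4956, 7661 and 7329 in the MYCN-high lines and 127, 1114, 169, 738 and 1017 in the MYCN-low lines (4.23 ± 0.64, adjusted p = 0.00246). INSM1, a zinc finger factor of neuroendocrine cells, had 6582, 888, 10916, 1231 and 14174 against 210.2, 45.6, 4.39, 55.3 and 67.3 (6.8 ± 0.99, adjusted p = 0.00183), lower in SK-N-BE2(C) and LAN-1 than in the other MYCN-high lines. DACH1 showed that same order, with 6164, 315, 4976, 1680.2 and 5829 against 4.38, 165, 47.6, 38.7 and 115 (6.1 ± 1.1, adjusted p = 0.00648). HAND2, a basic helix-loop-helix factor of noradrenergic neurons, had 645, 894, 531, 345 and 524 against 9.34, 11.2, 253, 143 and 47.7 (3.9 ± 0.98, adjusted p = 0.0339). GATA3 had 16411, 23748, 18224, 5907 and 13284 in the MYCN-high lines and 12.7, 1046, 2792, 1488 and 2280.4 in the MYCN-low lines, where only ACN lacked it.

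Genes of catecholamine synthesis and of secretory granules were higher in the MYCN-high lines at 9 of 17 measured members and lower at none, with a median of 4.45. With the related lines averaged 6 were called, and without SHEP21N MYCN on 8. DDC, the decarboxylase that makes dopamine, had 1203, 8317, 579.6, 15296 and 1179 in the MYCN-high lines and 9.07, 7.04, 69.8, 37 and 31 in the MYCN-low lines (7.11 ± 1.07, adjusted p = 0.00233). DBH, which turns dopamine into noradrenaline, had 1473, 348, 550.0, 1869 and 812 against 19.4, 76.1, 19.3, 74 and 46 (4.67 ± 0.64, adjusted p = 0.00121). SLC6A2, the noradrenaline transporter, had 1563, 2030.5, 2714, 3702 and 1742 against 78.8, 21.4, 6.99, 17 and 186 (6.35 ± 0.74, adjusted p = 0.000452). All 3 kept their calls with the related lines averaged. Of the granule proteins, CHGA had 7468, 14294, 3614, 17227 and 2644 against 197, 11.2, 40.0, 109 and 141 (6.98 ± 0.85, adjusted p = 0.00057), SCG3 was called at 8.18 ± 0.78 (adjusted p = 0.00013) and CHGB at 6.35 ± 0.9 (adjusted p = 0.00154). The call of CHGB was lost with the related lines averaged (adjusted p = 0.0617). The synthesis genes DDC and TH were brightest in SK-N-BE2(C) and LAN-1.

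Of 24 neuronal cytoskeleton and neurite genes, 17 were higher and none lower in the MYCN-high lines (median 4.78), 11 of them also with the related lines averaged and 15 without SHEP21N MYCN on. They included the neurofilament genes NEFM, NEFH and INA, the microtubule genes STMN2, DCX, MAP2, MAPT and TUBB3 and the adhesion genes NCAM1 and L1CAM. Synaptic vesicle genes were higher at 12 of 18 and lower at none (median 3.93), 8 with the related lines averaged and 12 without SHEP21N MYCN on. CPLX1, a complexin that holds the fusion machinery, had 1468, 2512, 3106, 1242 and 1646 in the MYCN-high lines and 5.99, 10.1, 3.05, 7.7 and 38 in the MYCN-low lines (7.99 ± 0.57, adjusted p = 2.01e-05). CPLX2, its relative, had 1198, 923, 1616, 949 and 1444 against 29.8, 31.9, 28.3, 18.3 and 47 (5.59 ± 0.4, adjusted p = 2e-05). SYT1 and SYT4, members of the synaptotagmin family of vesicle proteins, were called at 4.64 ± 0.54 (adjusted p = 0.000465) and 6.31 ± 0.65 (adjusted p = 0.000204). SYT1 had 8276, 4443, 12166, 7088 and 10820.5 in the MYCN-high lines and was not dark in the MYCN-low lines, with 248, 611, 796, 233 and 315 there, and its call was lost with the related lines averaged (adjusted p = 0.0546).

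Among 13 receptors and surface targets of neuroblastoma, 5 were higher and none lower (median 2.27, or 1.43 with signals under 50 set to 50), 2 with the related lines averaged and 4 without SHEP21N MYCN on. ALK, the receptor tyrosine kinase mutated in some neuroblastomas, had 1784, 1526, 1747, 399 and 847 in the MYCN-high lines and 27.9, 188, 42.2, 17.3 and 40.0 in the MYCN-low lines (4.92 ± 0.6, adjusted p = 0.000587). GFRA2, the co-receptor of neurturin, had 2343, 696, 4299, 506 and 3983 against 26.9, 28.9, 21.4, 5.0 and 7.3 (7.15 ± 0.73, adjusted p = 0.000204). DLK1, a surface protein with EGF-like repeats, varied more than 100-fold inside the MYCN-high group, from 265 in GI-LI-N to 41795 in LAN-1, against 58.5, 32, 9.73, 39.3 and 38.3 in the MYCN-low lines (6.4 ± 1.28, adjusted p = 0.0113). GPC2, a glypican, had 368, 229, 349, 251.4 and 275 against 17.6, 115, 74.9, 55 and 184 (2.33 ± 0.61, adjusted p = 0.04). The call of GPC2 was lost when any line other than ACN, GI-ME-N and SHEP21N MYCN on was left out (adjusted p between 0.0574 and 0.0917), and those of DLK1 and GPC2 with the related lines averaged (adjusted p of 0.0604 and 0.264).

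**Figure D2:**
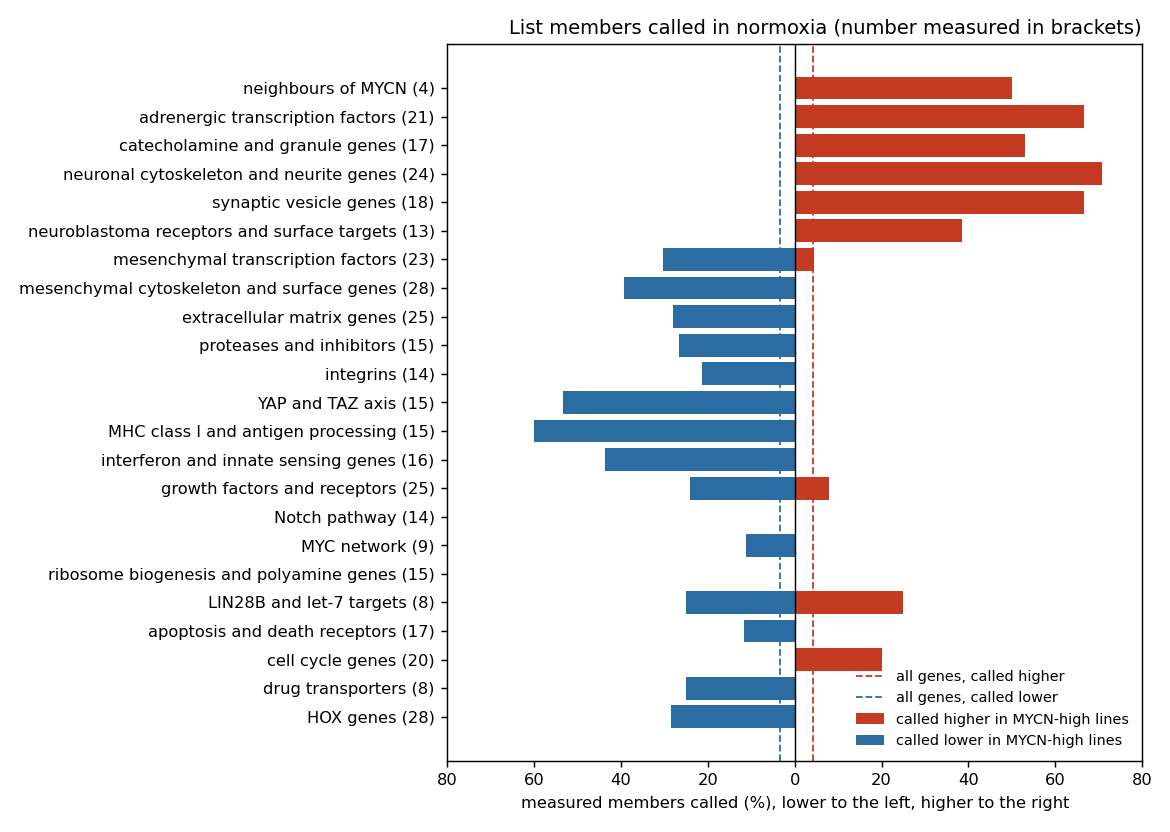
Share of the measured members of each gene list that was called in normoxia, in percent, with bars to the right for genes higher and to the left for genes lower in the MYCN-high lines. Dashed lines mark the shares over all genes, 4.3% and 3.34%. Neuronal cytoskeleton genes were called higher at 17 of 24 and genes of antigen processing lower at 9 of 15.

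A minority of the mesenchymal transcription factors was called. Of 23 measured, 7 were lower and 1 was higher in the MYCN-high lines (median -1.15), with FOSL1 alone called when the related lines were averaged. Over all genes 3.34% were lower and 4.3% higher, so 1 of 23 higher is near the share of all genes. Without SHEP21N MYCN on 6 members of the list were lower and none was higher. PRRX1, a homeobox factor of mesenchyme, had 24.8, 63.4, 11, 172 and 4.72 in the MYCN-high lines and 263, 3532, 4106, 4438 and 3542 in the MYCN-low lines (-6.14 ± 1.11, adjusted p = 0.00656). RUNX2, a factor of bone-forming cells, had 7.83, 1.88, 1.38, 0.96 and 0.7 against 9.62, 1282, 2420.3, 651 and 798 (-7.75 ± 1.37, adjusted p = 0.00583). TWIST2 had 41.8, 20.9, 49.1, 37.5 and 22.1 against 96.2, 676, 1841, 1028 and 1619 (-4.23 ± 0.84, adjusted p = 0.0109). In all 3 ACN was the lowest of the MYCN-low lines, and for RUNX2 it was at the level of the MYCN-high ones. Relative to the array median the groups overlapped at PRRX1 as well, where ACN lay below LAN-1, but not at TWIST2. The call of RUNX2 was lost once signals under 50 were set to 50 (adjusted p = 0.0521). FOSL1, a subunit of AP-1, had 7.03, 17.7, 77.2, 23 and 52.7 against 1358, 574, 1344, 1419 and 1886 without any overlap (-5.31 ± 0.7, adjusted p = 0.000951). AEBP1 was the 1 member higher in the MYCN-high lines, with 486, 63, 433, 100.3 and 540.1 against 24.1, 170.0, 35.4, 29.7 and 34 (2.71 ± 0.74, adjusted p = 0.0459). Its call was lost when any line other than SK-N-BE2(C) and SHEP-2 was left out (adjusted p between 0.0514 and 0.113). It was lost as well under the floor of 50 (adjusted p = 0.0982), with the values as deposited (0.0706) and after quantile normalization (0.0526). TWIST1 and ZEB1, which drive loss of epithelial character, had differences of 1.47 ± 0.49, adjusted p = 0.0945 and 2.02 ± 0.57, adjusted p = 0.0521, which did not pass the test.

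Cytoskeleton and surface genes of mesenchymal cells were lower in the MYCN-high lines at 11 of 28 and higher at none (median -3.30). With the related lines averaged 7 were called, and without SHEP21N MYCN on 11. They included CAV1, CAV2 and CAVIN1 of the caveolae, the annexin ANXA1, the membrane proteins EMP1 and EMP3, the galectin LGALS1 and the receptor kinase AXL. CAVIN1, needed to form caveolae, had 9.38, 17.3, 17.3, 155 and 13.5 in the MYCN-high lines and 2466, 7088, 14686, 3354 and 1695 in the MYCN-low lines (-7.31 ± 0.91, adjusted p = 0.000659). LAN-1 stood above the other MYCN-high lines there, as it did at S100A10.

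Matrix genes were lower at 7 of 25 (median -2.61), 1 of them, TGFBI, also with the related lines averaged and 6 without SHEP21N MYCN on. COL5A2, a fibrillar collagen chain, had 57, 7.4, 29.5, 70.0 and 38.9 in the MYCN-high lines and 457, 14822, 5454, 3297 and 3692 in the MYCN-low lines (-6.47 ± 0.95, adjusted p = 0.00189). THBS2, a thrombospondin, had 23.9, 54.4, 6.67, 14.8 and 14.3 against 2264, 3618, 102, 734 and 1721 (-5.56 ± 0.79, adjusted p = 0.00155). FN1, fibronectin, overlapped between the groups, with 402, 101, 207, 1729 and 273 against 9860.4, 8937, 27264, 1578 and 2239.7 (-3.95 ± 0.97, adjusted p = 0.0308), since LAN-1 was above SHEP21N MYCN off. Its call was lost under the floor of 50 (adjusted p = 0.0559), and when GI-LI-N, SK-N-BE2(C), IMR-32, SK-N-SH, ACN or SHEP-2 was left out (adjusted p between 0.0547 and 0.0761).

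Proteases and their inhibitors were lower at 4 of 15 (median -1.39), none with the related lines averaged and 2 without SHEP21N MYCN on. TIMP1, an inhibitor of matrix metalloproteinases, had 145, 875, 63.2, 1814 and 92.6 in the MYCN-high lines and 5308, 4635, 12508, 6126 and 3886 in the MYCN-low lines (-4.22 ± 0.95, adjusted p = 0.0206). PLAU, urokinase, had 65.2, 28.9, 9.52, 31.4 and 14.3 against 114, 954, 502, 497 and 392 (-3.81 ± 0.69, adjusted p = 0.00656). PLAT, tissue plasminogen activator (-3.54 ± 0.84, adjusted p = 0.0262), and MMP14, a membrane-bound metalloproteinase (-1.89 ± 0.44, adjusted p = 0.0229), were the others. The call of TIMP1 was lost without GI-LI-N or SK-N-SH (adjusted p of 0.0534 and 0.0559). That of MMP14 was lost without GI-LI-N, IMR-32 or SHEP21N MYCN on (adjusted p between 0.054 and 0.0674). The call of PLAT held only when LAN-1, ACN, SHEP-2 or GI-ME-N was the line left out (adjusted p between 0.052 and 0.0697 without the others). Integrin genes were lower at 3 of 14 (median -1.11), namely ITGA3, ITGA5 and ITGB5, 1 with the related lines averaged and 3 without SHEP21N MYCN on. ITGA5, the fibronectin receptor chain, had 96.3, 31.9, 12.5, 19.6 and 62.7 in the MYCN-high lines and 397, 1338, 967, 1194 and 791 in the MYCN-low lines (-4.4 ± 0.63, adjusted p = 0.00161).

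YAP1 and WWTR1 (TAZ) are co-activators of TEAD transcription factors that respond to cell shape and adhesion. Both were lower in the MYCN-high lines. YAP1 had 74.3, 47.8, 88.6, 236 and 127 in the MYCN-high lines and 2548, 3765, 2482, 2869.6 and 4473 in the MYCN-low lines (-4.73 ± 0.53, adjusted p = 0.000356). WWTR1 had 17.1, 64, 6.35, 164 and 11.7 against 6159, 2268, 5683, 6432 and 3040.3 (-7.09 ± 0.88, adjusted p = 0.000641). Of 15 genes of the axis 8 were lower and none higher (median -2.55), 3 with the related lines averaged (YAP1, WWTR1 and PTPN14) and 3 without SHEP21N MYCN on. CCN1, a matricellular target of the pair, had 209, 41.6, 208, 57.7 and 201 against 145, 13225, 6437, 7889 and 10949.6 (-4.86 ± 1.19, adjusted p = 0.0296). In ACN the YAP1 and WWTR1 signals lay within the range of the other MYCN-low lines. Relative to the array median, however, its YAP1 level was the lowest of the MYCN-low group. The CCN1 signal of ACN was inside the range of the MYCN-high lines. The call of CCN1 held only when ACN or GI-ME-N was left out (adjusted p between 0.052 and 0.0728 without any other line) and was lost under the floor of 50 (adjusted p = 0.0572). PTPN14, a phosphatase that restrains YAP1, had 24.1, 13, 66.2, 9.21 and 14 against 899.7, 5979, 4284, 3113 and 4706 (-7.12 ± 0.67, adjusted p = 0.00012).

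Antigen presentation by MHC class I loads peptides cut by the immunoproteasome (PSMB8, PSMB9) and carried by the TAP transporter (TAP1, TAP2). In the MYCN-high lines 9 of 15 such genes were lower and none was higher (median -2.46), but none was called with the related lines averaged and 3 without SHEP21N MYCN on. HLA-C had 75.4, 391, 75.3, 944 and 48.7 in the MYCN-high lines and 3987, 14274, 368, 10676 and 10382 in the MYCN-low lines (-4.63 ± 1.05, adjusted p = 0.0219), and probes for HLA genes can bind near-identical copies, so its level is uncertain. PSMB9 had 6.86, 11, 5.72, 6.5 and 2.82 against 1703, 987, 34.3, 2134 and 3616 (-6.88 ± 0.98, adjusted p = 0.00155), and PSMB8 had 10.3, 10.6, 3.89, 9.93 and 2.09 against 1683, 1430.3, 3.11, 2014 and 909 (-5.85 ± 1.46, adjusted p = 0.032). GI-ME-N was the dimmest MYCN-low line at HLA-C, TAP1 and both immunoproteasome genes, and at PSMB8 it lay inside the range of the MYCN-high lines. TAP1 had 32.1, 100.1, 52, 54.9 and 6.22 against 1361, 856, 169.5, 589 and 1113 (-3.96 ± 0.7, adjusted p = 0.00584). B2M, the light chain shared by class I molecules, was bright everywhere, with 16433, 20505, 17709.9, 24971 and 15561 against 38941, 55610.4, 19547, 36152 and 28130.4, and did not pass the test (-0.58 ± 0.36, adjusted p = 0.367). The call of HLA-C was lost when GI-LI-N, IMR-32, SK-N-SH, SHEP-2 or either SHEP21N array was left out (adjusted p between 0.0545 and 0.0584). PSMB8 kept its call only when LAN-1 or GI-ME-N was left out (adjusted p between 0.057 and 0.0812 without any other line).

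Interferon-induced and innate sensing genes were lower in the MYCN-high lines at 7 of 16 and higher at none (median -2.82). With the related lines averaged 3 were called (IFITM3, IFIT3 and STING1), and without SHEP21N MYCN on 6. IFITM3, which blocks entry of viruses at membranes, had 62.5, 15.2, 19.4, 52.7 and 176 in the MYCN-high lines and 6717, 14604, 1751, 14434 and 6984 in the MYCN-low lines (-7.05 ± 0.76, adjusted p = 0.000263). IFITM2, a near-identical relative whose probes may share targets with it, had 217, 198, 11.9, 132.7 and 37.1 against 4144, 16542, 787, 12288 and 7955 (-5.93 ± 0.92, adjusted p = 0.0028). IFIT1 and IFIT3 encode proteins that bind viral RNA. IFIT1 had 9.87, 73.9, 5.44, 14 and 3.72 in the MYCN-high lines and 465, 1654, 379.6, 915 and 358 in the MYCN-low lines (-5.5 ± 0.74, adjusted p = 0.00109). For IFIT3 the signals were 39.6, 33.6, 38.8, 62.2 and 20.9 against 3050.4, 3002, 336, 949.5 and 536 (-4.64 ± 0.58, adjusted p = 0.000641). No MYCN-high line reached a MYCN-low line at these 4 genes, with the lowest MYCN-low signals in GI-ME-N or in SHEP21N MYCN on.

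The promoters of some of these genes hold the tetramer GAAA in 2 copies with any 2 bases between them, the core of the element that interferon regulatory factors bind. The windows searched ran from 250 bases before to 50 after the start site on RefSeq's GRCh38.p14, on both strands, for 68 of the 94 named genes. The motif was chosen after the values were seen. IFITM3, IFIT1 and IFIT3 belong to the interferon list and TAP1 to the antigen processing list, and genes were named from both lists. The counts that follow therefore cannot tell whether lower genes in general hold the motif more often. The motif was in 6 of the 39 named genes lower in the MYCN-high lines that have a window (IFITM3, TAP1, IFIT3, IFIT1, CASP8 and ABCC2), in 0 of the 26 higher ones and in 3.57% of all 35116 windows. The stretches below are shown because they carry 2 matches each, in capitals, read 5′ to 3′ on the strand of the gene (TTTC repeated in the same way is the motif on the other strand). In TAP1 the 2 matches overlap. The TAP1 window also shares 13 bases with that of PSMB9, which starts next to it on the other strand and was lower as well.
IFIT1, chr10:89392493-89392552, plus strand, 130 to 71 bases before the start: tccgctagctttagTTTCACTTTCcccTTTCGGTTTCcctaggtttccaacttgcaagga
IFIT3, chr10:89327832-89327891, plus strand, 165 to 106 bases before the start: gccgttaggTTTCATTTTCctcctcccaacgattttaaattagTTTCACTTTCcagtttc
IFITM3, chr11:320866-320925, minus strand, 65 to 6 bases before the start: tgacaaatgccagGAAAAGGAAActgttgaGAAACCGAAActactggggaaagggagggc
TAP1, chr6:32853795-32853854, minus strand, 150 to 91 bases before the start: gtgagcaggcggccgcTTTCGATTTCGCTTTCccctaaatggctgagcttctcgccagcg

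Other letters were searched in the same windows. CACGTG, which MYC family proteins bind, was in 1 of the 26 named genes higher in the MYCN-high lines (CDK6), in 4 of the 39 lower ones (YAP1, MET, ABCA1 and HOXD10) and in 7.26% of all windows. TGANTCA, bound by AP-1, was in 0 of 26 and 4 of 39 (DNAJC15, RUNX2, ITGA5 and FAS) and in 7.71% of all windows. GGAATG, bound by TEAD factors, was in 5 of 26, in 7 of 39 and in 14% of all windows. CAGCTG, bound by basic helix-loop-helix factors, was in 3 of 26, in 3 of 39 and in 17.9% of all windows.

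**Figure D3:**
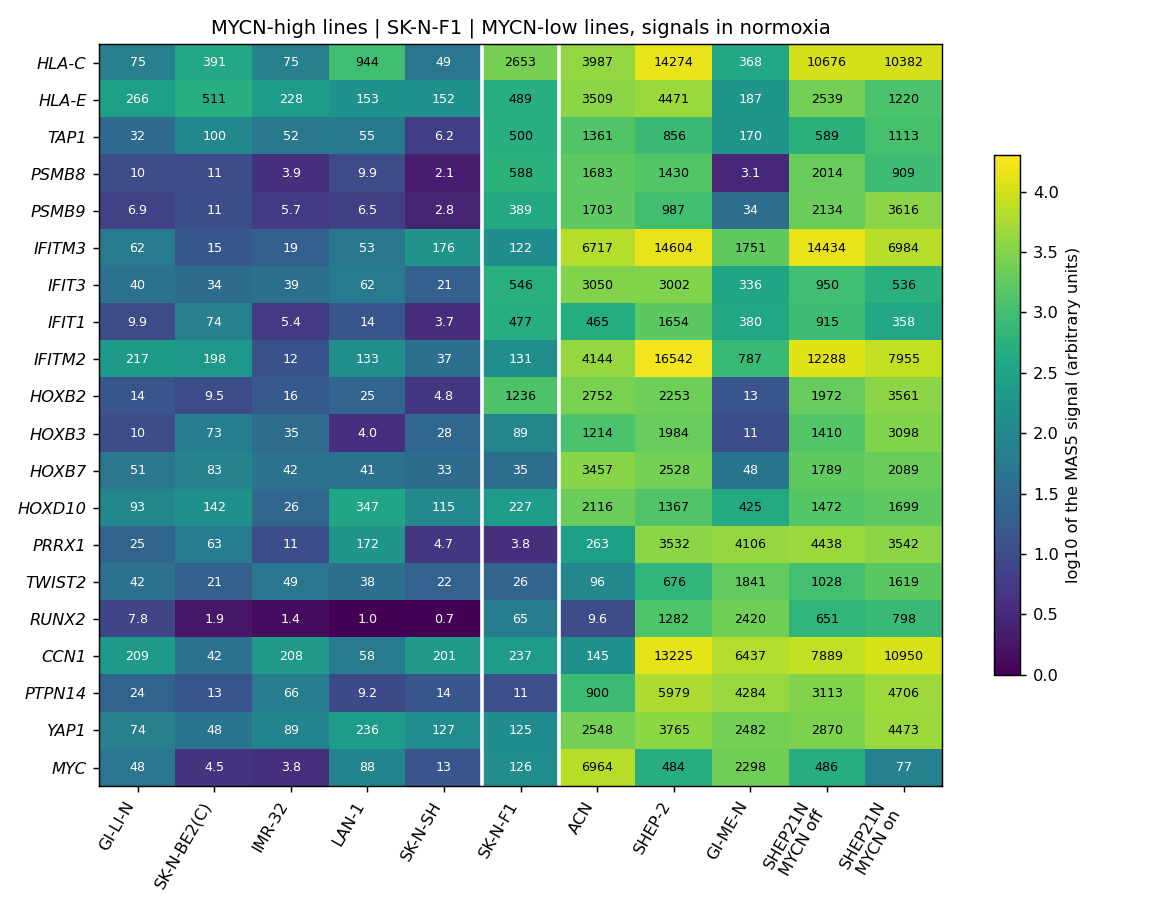
Signals in normoxia of 20 genes lower in the MYCN-high lines, coloured on a log10 scale and printed in the cells, with the MYCN-high lines on the left, SK-N-F1 in the middle and the MYCN-low lines on the right. GI-ME-N is dark at HOXB2 (13.3), HOXB3 (10.7), HOXB7 (47.8) and PSMB8 (3.11), and ACN at RUNX2 (9.62) and CCN1 (145). The array labelled SHEP21N MYCN on is the lowest MYCN-low line at MYC (77.0).

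MYC, the relative of MYCN, was lower in the MYCN-high lines, with 47.9, 4.5, 3.83, 87.8 and 13.4 there and 6964, 484, 2298, 486 and 77 in the MYCN-low lines (-5.37 ± 1.27, adjusted p = 0.0259). SHEP21N MYCN on had less than LAN-1, so the groups overlapped, and ACN had the most. Its call was lost under the floor of 50 (adjusted p = 0.0879) and without SK-N-BE2(C), IMR-32 or SK-N-SH (adjusted p between 0.0593 and 0.0661), as well as with the related lines averaged (adjusted p = 0.119). It was the 1 called member of 9 in the MYC network, also without SHEP21N MYCN on. Of 15 genes of ribosome biogenesis and polyamine synthesis, known targets of MYC proteins, none was called in either direction, whether in the main comparison, with the related lines averaged or without SHEP21N MYCN on (median 0.46, or 0.20 as deposited and 0.25 after quantile normalization). NCL, nucleolin, had a log2 difference of 1.06 ± 0.42, adjusted p = 0.159, and ODC1, which makes putrescine, had 0.94 ± 0.62, adjusted p = 0.393. Of 14 Notch pathway genes none was called in either direction (median 0.26, or 0.01 as deposited), none with the related lines averaged, and JAG2 alone, higher, without SHEP21N MYCN on. With 4.3% of all genes called higher and 3.34% lower, lists this short may hold no called member.

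LIN28B blocks maturation of let-7 microRNAs, which repress HMGA2 and IGF2BP2. LIN28B was higher in the MYCN-high lines, with 2974, 1757, 1862, 7687 and 2944 against 34.9, 95.5, 131, 345 and 308 in the MYCN-low lines (4.69 ± 0.77, adjusted p = 0.00364). HMGA2, a chromatin protein, was lower, with 43.9, 19.9, 48.5, 47.3 and 16.9 against 1541, 655, 12761, 1920.1 and 2016 (-5.83 ± 0.83, adjusted p = 0.00161), and its call held with the related lines averaged (adjusted p = 0.0433). IGF2BP2, an RNA-binding protein, was lower as well, with 444, 158, 1074, 104 and 516 against 3867, 2414, 2020.2, 1558 and 2847 (-2.61 ± 0.59, adjusted p = 0.0219). DICER1, which cuts microRNA precursors, was higher (2.11 ± 0.53, adjusted p = 0.0323), and leaving out any line other than GI-ME-N ended its call (adjusted p between 0.0511 and 0.0723). Of the 8 genes measured these 4 were called, HMGA2 alone with the related lines averaged, and LIN28B, HMGA2 and IGF2BP2 without SHEP21N MYCN on.

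Of the apoptosis list, CASP8 and FAS were lower. CASP8, the initiator caspase of death receptors, which is known to be silenced in many neuroblastomas, had 33.7, 65.4, 23.6, 99.1 and 25.7 in the MYCN-high lines and 616, 806, 1563, 2370.4 and 3199 in the MYCN-low lines (-4.82 ± 0.67, adjusted p = 0.00136). FAS, a death receptor, had 192, 39, 135, 83.4 and 169.8 against 585, 1879, 637, 524 and 430.3 (-2.43 ± 0.56, adjusted p = 0.0234), and its call was lost without IMR-32 or SHEP-2 (adjusted p of 0.0503 and 0.0534). These were the 2 of 17 members called (median of the list 0.06, but -0.20 as deposited and -0.23 after quantile normalization), and both were called without SHEP21N MYCN on but neither with the related lines averaged.

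Cell cycle genes were higher at 4 of 20 and lower at none (median 0.87, or 0.56 after quantile normalization), none with the related lines averaged and 3 without SHEP21N MYCN on. CCND1, cyclin D1, had 8288, 8399, 11529.6, 11182 and 10093 in the MYCN-high lines and 872, 463, 4432, 629 and 235 in the MYCN-low lines (3.94 ± 0.77, adjusted p = 0.0103), and its partner CDK6 had 17485, 10975, 10902, 9902 and 12977 against 1712, 4859, 4562, 3374 and 1567 (2.34 ± 0.49, adjusted p = 0.0151). GI-ME-N had the highest CCND1 signal of its group. CDKN1B, the p27 inhibitor of cyclin-dependent kinases, was higher too (2.03 ± 0.53, adjusted p = 0.0382), but only LAN-1, GI-ME-N and SHEP21N MYCN off could be left out without ending that call (adjusted p between 0.0505 and 0.1 otherwise). E2F1 (2.13 ± 0.51, adjusted p = 0.0261) lost its call without GI-LI-N, IMR-32, SK-N-SH, SHEP-2 or SHEP21N MYCN off (adjusted p between 0.0546 and 0.071).

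Of 25 growth factors and receptors, 6 were lower and 2 higher in the MYCN-high lines (median -0.67, or -1.06 with signals under 50 set to 50), none with the related lines averaged, and 4 were lower and 2 higher without SHEP21N MYCN on. MET, the receptor of hepatocyte growth factor, had 10.6, 40.9, 29.3, 548 and 5.79 in the MYCN-high lines, with LAN-1 well above the rest, and 1242, 14208, 8420.5, 7199 and 7090.1 in the MYCN-low lines (-7.23 ± 1.17, adjusted p = 0.00341). TGFBR2, a receptor of TGF-beta, had 75.1, 75.3, 56.4, 126 and 15.7 against 2228, 1656, 7491, 647 and 815 (-4.63 ± 0.79, adjusted p = 0.00483). IGFBP2 and IGFBP5, binding proteins of insulin-like growth factors, were the 2 that were higher (5.56 ± 1.07, adjusted p = 0.00925 and 3.91 ± 0.72, adjusted p = 0.00751). Drug transporters were lower at 2 of 8 (ABCA1 and ABCC2), none with the related lines averaged and ABCC2 alone without SHEP21N MYCN on. ABCC2 lost its call under the floor of 50 (adjusted p = 0.224), with signals of 3.96, 24, 3.67, 3.52 and 3.96 in the MYCN-high and 179, 106, 21.9, 132 and 49.3 in the MYCN-low lines. ABCA1, a cholesterol exporter (-3.13 ± 0.82, adjusted p = 0.0389), kept its call only without SK-N-BE2(C), LAN-1 or SHEP-2 (adjusted p between 0.0617 and 0.0848 otherwise).

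HOX genes set position along the body axis. In the MYCN-high lines 8 of 28 measured were lower and none higher (median -1.12, or -0.495 with signals under 50 set to 50), 6 of them from the HOXB cluster on chromosome 17, with 5 called without SHEP21N MYCN on and none with the related lines averaged. Of the HOXA cluster only HOXA2 was measured, so that cluster cannot be set beside HOXB. HOXB7 had 50.8, 83.4, 41.7, 41.2 and 33.4 in the MYCN-high lines and 3457, 2528, 47.8, 1789 and 2089 in the MYCN-low lines (-4.26 ± 0.89, adjusted p = 0.0147), and HOXB2 had 14, 9.49, 16.2, 25.2 and 4.79 against 2752, 2253, 13.3, 1972 and 3561 (-5.95 ± 1.25, adjusted p = 0.0148). GI-ME-N was in the range of the MYCN-high lines at both. HOXD10, by contrast, had 92.5, 142, 26.1, 347 and 115 against 2116, 1367, 425, 1472 and 1699 with no overlap (-3.3 ± 0.67, adjusted p = 0.0129). HOXB3 (-4.77 ± 1.29, adjusted p = 0.0459) kept its call only when GI-ME-N was left out (adjusted p between 0.0556 and 0.107 without any other line).

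**Figure D4:**
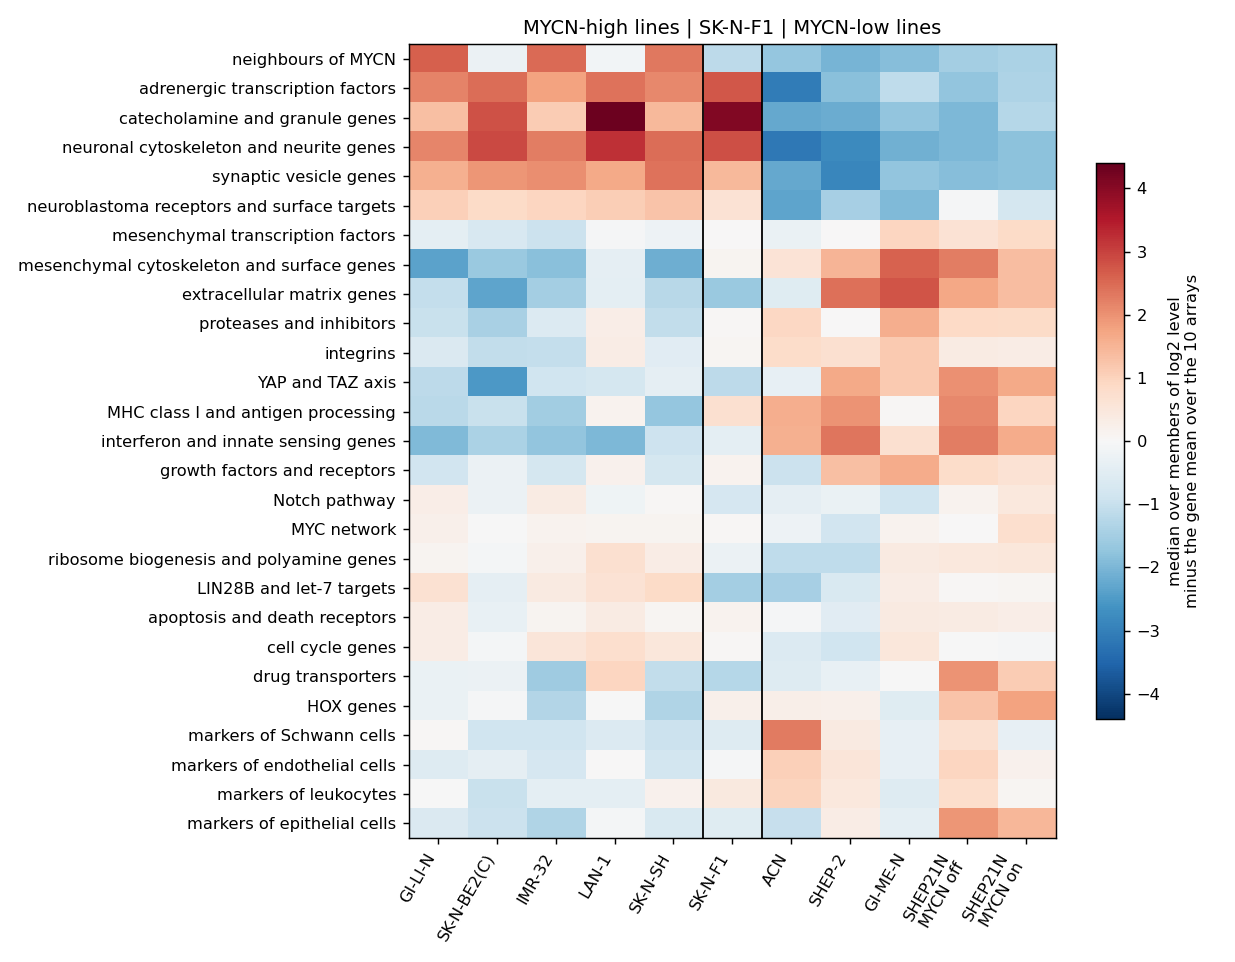
Median log2 level of each gene list by line, relative to each gene's mean over the 10 arrays, red above and blue below it, with SK-N-F1 between the MYCN-high lines on the left and the MYCN-low lines on the right. The 4 neuronal lists run from 1.11 to 4.32 in the MYCN-high lines and from -3.15 to -1.13 in the MYCN-low lines. The matrix list is at -0.53 in ACN and between 1.34 and 2.77 in the other MYCN-low lines.

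The lines differed within their groups as well. For catecholamine and granule genes the median level relative to the gene means was 1.31, 2.80, 1.11, 4.32 and 1.42 in the MYCN-high lines, highest in LAN-1 and SK-N-BE2(C), against -2.25, -2.17, -1.74, -1.99 and -1.25 in the MYCN-low lines. Matrix genes were at -1.04, -2.33, -1.505, -0.44 and -1.22 in the MYCN-high lines, and at -0.53, 2.44, 2.77, 1.70 and 1.34 in the MYCN-low lines, so ACN lay at the level of LAN-1. Genes of antigen processing were at 0.17 in LAN-1, the highest of the MYCN-high lines, and at 0.07 in GI-ME-N, the lowest of the MYCN-low ones. The interferon list kept the groups apart, with -0.92 or less in the MYCN-high lines and 0.70 or more in the MYCN-low lines.

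SK-N-F1, which the rule left out, was set against both groups with no test, since it is 1 array. It lay nearer to the MYCN-high than to the MYCN-low mean at 1085 of the 1510 called genes (71.9%). This held for 700 of the 850 genes higher in the MYCN-high lines (82.4%), and for 385 of the 660 lower ones (58.3%). The share over all genes was not computed, so these shares do not set the called genes apart from the rest. Across genes the SK-N-F1 array correlated at 0.852 to 0.881 with the MYCN-high arrays and at 0.744 to 0.823 with the MYCN-low ones. It carried GAL (41372), PHOX2A (9209) and DLK1 (42089.8) at the level of MYCN-high lines. At CD24 (350.8) and MYCNOS (66.3) it was with, or close to, the MYCN-low lines, and at S100A10 (15588), DNAJC15 (5081), CD44 (5197), HLA-C (2653) and HOXB2 (1236) it was above every MYCN-high line.

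The hypoxia arrays of the same lines were fitted on their own as a second measurement. They are of the same cells, so they are not new lines. In hypoxia 879 genes were higher and 646 lower in the MYCN-high lines (7.71% of genes: 4.45% and 3.27%). The MYCN-low group includes the SHEP21N MYCN on array with a MYCN signal of 830.2 at the probeset of the split. Without that array, an alternative chosen after seeing the data, 679 were higher and 452 lower. Of the 1510 genes called in normoxia, 1048 were called in hypoxia in the same direction (69.4% of the normoxia and 68.7% of the hypoxia calls), 0 in the opposite one, and 1482 had the same sign (98.1%). GAL ran from 11055 to 22418 in the MYCN-high lines in hypoxia and from 5.34 to 132 in the MYCN-low lines. CAV1 ran from 6.05 to 38.3 in the MYCN-high and from 5102 to 47468 in the MYCN-low lines. RUNX2, at the level of the MYCN-high lines in ACN in normoxia, was at most 20.9 in the MYCN-high lines in hypoxia and at 132.7 or more in all MYCN-low lines. PSMB8 was at most 7.88 in the MYCN-high lines in hypoxia, while the dimmest MYCN-low line had 2.83. Of the 90 named genes called in normoxia 85 were called in hypoxia, all but GPC2, E2F1, ABCA1, ABCC2 and HOXB3.

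**Figure D5:**
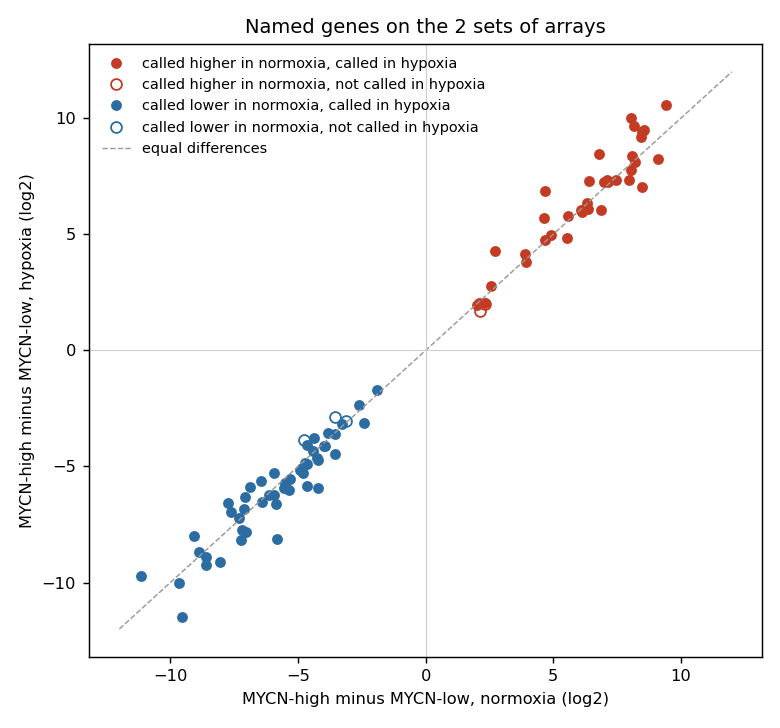
Difference between MYCN-high and MYCN-low lines (log2) of the 90 named genes called in normoxia, on the normoxia arrays (horizontal) and on the hypoxia arrays of the same lines (vertical). Red points are genes higher and blue points genes lower in the MYCN-high lines. Filled points were called in both, the 5 open ones in normoxia alone, and the dashed line marks equal differences. CAV1 is at -11.14 in normoxia and -9.74 in hypoxia.

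Markers of other cell types were read as a check. The summed signal of 6 Schwann cell markers ran from 129.6 to 326 in the MYCN-high lines and from 162 to 7560.1 in the MYCN-low lines, where ACN had S100B at 5067 and SOX10 at 1288. That of 6 endothelial markers ran from 246 to 342 in the MYCN-high and from 338 to 773 in the MYCN-low lines, and that of 4 leukocyte markers from 78.3 to 154 and from 83.2 to 387. No member of these 3 lists was called. The 6 epithelial markers summed to 225 to 1098 in the MYCN-high lines and 1050.0 to 36455 in the MYCN-low lines. There KRT18, a keratin also made by other cells, was called lower in the MYCN-high lines (112, 244, 94, 778 and 88.3, against 869, 32378, 15006, 32852 and 11393 in the MYCN-low lines; -5.69 ± 1.06, adjusted p = 0.00774), while EPCAM and CDH1, which define epithelia, stayed at 82.4 or less on all 10 arrays. The call of KRT18 was lost with the related lines averaged (adjusted p = 0.255) and held without SHEP21N MYCN on (adjusted p = 0.0213). The part of these marker genes in the results above was not tested. Of the control genes, GAPDH had a log2 difference of 0.33 ± 0.33, adjusted p = 0.591 and ACTB of 0.25 ± 0.44, adjusted p = 0.778, and the sign of ACTB turned to -0.10 without SHEP21N MYCN on and to -0.01 as deposited.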

How the data were processed

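RNA of 11 neuroblastoma lines in normoxia and hypoxia was measured on Affymetrix expression arrays (HG-U133 Plus 2.0), 1 array per line and condition. The authors deposited MAS5 signal intensity values on a linear scale, 54675 probesets per array, each array scaled by them to a common average. The 4 SHEP21N arrays are given to 1 decimal with a lowest signal of 3.3, where the others go below 1, and whether they were processed in another run is not given in the sources used here. Such scaling lets a few bright probesets move all the others, so each intensity was divided by its array's median before log2. Of the probesets, 41091 name 1 gene (19775 genes). The probeset with the highest mean log2 level over the 22 arrays stood for its gene, and none below background was removed, so dim signals carry noise. Probes can bind near-identical copies of a gene.

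Groups were compared with limma 3.58.1 (lmFit, eBayes; R 4.3.3) and Benjamini-Hochberg adjustment over 19774 genes. Every adjusted p in the text comes from such a limma fit. A gene was called at an adjusted p under 0.05 and at least 2-fold. MYCN was used to form the groups and was not tested. Whether groups overlap was read from levels relative to the array median. For the floor, each signal was divided by its array's median and multiplied by 93.4, the median of the array medians. Values under 50 were then set to 50. Signals under 50 set to 50 refers to these rescaled signals throughout. Figures used Python 3.11.15 and matplotlib 3.10.9, and the scripts were tested on simulated data. Promoter windows are RefSeq's.

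The genes named were the 12 in each direction with the largest difference after the floor, among called genes whose groups do not overlap and whose higher group reached 500 on every array, up to 4 called members per list, 1 called member in the opposite direction, and 9 genes set apart as markers or controls. GATA3, TH, COL1A1, SNAI2, HAND2, S100B, SOX10, EPCAM, CDH1 and KRT18 are cell type markers. ISL1, SLC6A2, NBAS, B2M, TWIST1, ZEB1, NCL, ODC1, JAG2 and members given only by name were named after their values were seen. Members and lists were chosen with earlier results of these data known. Alternatives changed the scaling, floor, filter, probeset rule, test, relatedness of lines and single lines, and fitted both conditions together with the line as a random block. Some genes are not reported here.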

Additional observations from a re-analysis of the deposited data

Results flagged for a closer look

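In the groups of 5 lines, 194 sets of values were searched for a line that stands apart from the rest by Dixon's criterion: 188 sets of log2 levels and 6 of control probeset ratios and array medians. Such a line was in 23 of them (11.9%), 21 of log2 levels and 2 of control ratios. Chance gives about 1 in 20 only for independent lines and independent sets. Here some lines are related and genes were chosen by their values, so these shares cannot be compared. Levels are log2 of the signal over the array median in normoxia, with the range of the other 4 lines of the group behind each.

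ACN was low in the MYCN-low group at 7 genes: MYOF at 4.47 (others 5.97 to 6.24), PRRX1 at 1.03 (4.72 to 5.86), RUNX2 at -3.75 (2.82 to 5.10), PTPN14 at 2.80 (5.08 to 5.93), CCN1 at 0.17 (6.42 to 6.67), MET at 3.27 (6.05 to 6.90) and IGFBP5 at -1.33 (1.09 to 1.46). Of these, IGFBP5 is one that was higher in the MYCN-high lines.

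GI-ME-N was low in the MYCN-low group at ASS1 with -2.62 (others -0.05 to 0.95), at PSMB8 with -4.50 (3.08 to 4.45), and at 3 HOXB genes, with HOXB2 at -2.41 (4.08 to 5.05), HOXB7 at -0.56 (4.24 to 4.74) and HOXB3 at -2.72 (3.23 to 4.85).

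SK-N-BE2(C) was low in the MYCN-high group at CHRNA3 with 5.01 (others 7.17 to 8.01), OLFM1 with 5.45 (6.61 to 7.02), ASS1 with 3.89 (7.17 to 7.84) and GPC2 with 1.16 (1.79 to 1.96), and high at ABCC2 with -2.09 (-4.65 to -4.30). LAN-1 was high in the MYCN-high group at CAVIN1 with 1.16 (-3.33 to -2.41) and at PLAT with 4.24 (-0.20 to 0.51).

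Among the SHEP lines, SHEP21N MYCN off was high at TGFBI with 7.93 (other MYCN-low lines 5.84 to 6.42), and SHEP-2 was low at MYCNOS with -4.36 (-2.14 to -1.80). The 3'/5' ratios of the control probesets, which are not log2 levels, were 67.3 for GAPDH and 94.0 for ACTB on the array labelled SHEP21N MYCN on, against 0.939 to 1.37 and 1.23 to 5.05 on the other MYCN-low arrays.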

How the results depend on the processing

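Against 850 genes higher and 660 lower in the MYCN-high lines, other fits gave 353 and 231 (the methods' t-test), 172 and 85 (related lines averaged, 3 against 3), 415 and 273 (lineage as a random block), 532 and 269 (both SHEP21N arrays left out), 364 and 141 (all 3 SHEP lines left out), 1744 and 1024 (normoxia and hypoxia arrays in 1 fit) and 336 and 212 (adjusted p under 0.01). Among alternatives chosen after seeing the data, averaging the related lines without SHEP21N MYCN on gave 173 and 83, and averaging them with the floor of 50 gave 136 and 66. With 1 line left out the higher genes numbered 489 (SK-N-SH) to 1294 (GI-ME-N) and the lower ones 390 (SHEP21N MYCN off) to 844 (GI-ME-N). Without SHEP21N MYCN on the lower genes numbered 438. Counts stayed within 1.5 times under the scaling, floor, mean signal, probeset mean, trend and SK-N-F1 alternatives and with no 2-fold limit. In hypoxia, averaging the related lines gave 150 higher and 83 lower genes, and the counts without SHEP21N MYCN on (679 and 452) were within 1.5 times. SK-N-F1 lay nearer the MYCN-high mean at 79.8% of the genes called with the related lines averaged. Fewer samples entered the fits that average or leave out lines. Of 93 named genes tested, 49 lost the call with the related lines averaged, 32 in the methods' t-test, 11 without SHEP21N MYCN on and 6 under the floor of 50. ACTB was the only one of the 93 to change sign in any alternative, with 0.25 on the log2 scale in the main comparison, -0.00946 as deposited, -0.0517 without both SHEP21N arrays, -0.0766 with related lines averaged without SHEP21N MYCN on, and -0.10 to 0.39 with 1 line left out. The cause was not tested for the other changes. No paired analysis was possible because the groups are different cell lines and the labels number no replicates. With 1 array per line the number of lines limits precision, and signals near background have no reliable order.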

Other observations

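Some genes outside the lists, named after their values were seen, kept their call in normoxia with the related lines averaged. A pair of related peroxidases of the endoplasmic reticulum went opposite ways: GPX7 had 1523, 1479, 2312, 1199.8 and 2039 in the MYCN-high lines and 21.4, 95.2, 8.16, 88.3 and 47.7 in the MYCN-low lines (5.75 ± 0.6, adjusted p = 0.000219 in limma), while GPX8 had 42.5, 24.8, 6.68, 82.7 and 232 against 4769, 10402, 5327, 6576 and 4564 (-6.9 ± 0.85, adjusted p = 0.000599). ST8SIA2, which adds polysialic acid to NCAM1, had 2134, 1926, 2657, 904 and 2424 in the MYCN-high lines and 32.4, 8.87, 2.91, 14 and 43.3 in the MYCN-low lines (7.35 ± 0.62, adjusted p = 4.89e-05). KIF1A, a motor of axonal transport, had 2635, 961, 1918, 1443 and 2044 against 57.3, 12, 6.79, 12.7 and 10.3 (7.15 ± 0.53, adjusted p = 2.42e-05). CKB, the brain form of creatine kinase, had 6849, 7684, 11958, 6366 and 7312 against 436, 122, 99.3, 108 and 167 (5.9 ± 0.43, adjusted p = 2.01e-05), and SK-N-F1 lay between the groups at 1093. On the lower side were cytokine receptor chains, with 82.9, 35, 36, 36 and 46.7 for OSMR in the MYCN-high lines and 564, 7159.8, 2311, 1588 and 2426 in the MYCN-low lines (-5.26 ± 0.63, adjusted p = 0.000503), and 30.8, 56.3, 92.1, 80.3 and 128 against 1313, 2266, 1513, 1512 and 1482 for IL13RA1 (-4.25 ± 0.48, adjusted p = 0.000407). SP100 and SP110, nuclear body proteins that interferon induces, differed by -6.7 ± 0.57, adjusted p = 4.89e-05 and -4.71 ± 0.45, adjusted p = 0.00013. FAP, a serine protease of activated fibroblasts, had 13.8, 14.9, 6.6, 2.04 and 3.34 against 764, 3658, 1905, 533 and 318 (-7.04 ± 0.73, adjusted p = 0.000219).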
